A study of Homo sapiens with 6 samples.

Results

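The interferon receptor chains, the Janus kinases bound to them and the factors of the complex ISGF3 were compared between BRCA2-knockout and wild-type cells. The members were 9 genes chosen by name: IFNAR1, IFNAR2, IFNGR1, IFNGR2, JAK1, JAK2, TYK2, STAT2 and IRF9. A gene was taken as measured where a probe set carried its symbol and no other, which gave 8 of the 9, out of 13139 genes named in this way. STAT2 had no such probe set in the annotation used and was not analysed here. Each of the 8 was represented by 1 probe set.

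The knockout was an HCT116 line, from a human colon carcinoma, in which homologous recombination had been used to target one BRCA2 allele and then the other. The reference was wild-type HCT116. The labels name no interferon treatment for either genotype, so the values are taken as those of cells without added interferon. Each genotype had 3 arrays. The titles call them technical replicates, while the RNA protocol speaks of 3 frozen samples per genotype, and nothing says that they came from separate cultures, so the spread behind the p-values may be technical. The knockout stands for 1 genotype label with no clone named, and loss of BRCA2 cannot be told apart from other differences between the lines.

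Interferons signal through pairs of receptor chains that carry no enzyme of their own. IFNAR1 and IFNAR2 bind type I interferons and work with the kinases TYK2 and JAK1, whereas IFNGR1 and IFNGR2 bind interferon gamma and work with JAK1 and JAK2. The kinases phosphorylate STAT proteins, and after type I interferon STAT2 and IRF9 act within ISGF3, which binds interferon-stimulated response elements (ISRE) in target genes. Genes induced by interferon gamma are reached through gamma-activated sites (GAS).

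Values are log2 probe set values as deposited, over 19458 probe sets. The arrays differed in their medians, which were 7.41, 7.80 and 7.41 on knockout arrays 1, 2 and 3 and 7.71, 7.36 and 7.48 on wild-type arrays 1, 2 and 3. Of 10 markers of colon epithelium all were measured, and EPCAM and KRT8, an adhesion molecule and a keratin of simple epithelia, lay between 9.75 and 13.1 on the knockout arrays and between 9.47 and 12.8 on the wild-type arrays. KRT20 and CEACAM5, markers of mature colon cells, lay between 5.09 and 6.74 in knockout and between 5.44 and 6.20 in wild type. Of the colon markers 9 were higher in knockout (median 0.33). The mean over the 5 measured of 9 leukocyte markers was 5.92 to 6.48 in knockout and 5.88 to 6.46 in wild type, with 3 higher and 2 lower in knockout (median 0.50). LYZ, the lysozyme gene, had the largest difference among them, -0.82 (adjusted p = 0.554). The mean over the 8 measured of 9 markers of fibroblasts and endothelium was 6.09 to 6.99 in knockout and 5.84 to 6.68 in wild type, with 7 higher and 1 lower in knockout (median 0.36). Markers of other cell types thus had medians on the same side as the colon markers. The markers with an unadjusted p under 0.05 were CDH1, the E-cadherin gene, with a difference of 1.15 (adjusted p = 0.127), and COL1A1, a collagen gene, with 1.10 (adjusted p = 0.159), and their part in the results was not tested. BRCA2 itself was not analysed here, since no probe set carried that symbol alone in the annotation used.

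The comparison asked whether the genes that receive and relay interferon signals differed between the genotypes. JAK2 was lower in the knockout and IRF9 was higher, while the 4 receptor chains had small or variable differences. In all, 4 members were higher and 4 were lower, with a median difference of -0.04 on the log2 scale, against 0.02 over all probe sets. None of the 8 passed an adjusted p of 0.05 in limma, a threshold that 0.57% of all probe sets passed (0.416% higher and 0.154% lower in knockout). At an unadjusted p under 0.05 there were 2 members, IRF9 and JAK2, which is 25.0% of the 8 against 12.2% of all probe sets. For 3 members every knockout array lay on one side of every wild-type array, IRF9 above and JAK2 and TYK2 below, which is 37.5% against 19.7% of all probe sets.

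**Figure D1:**
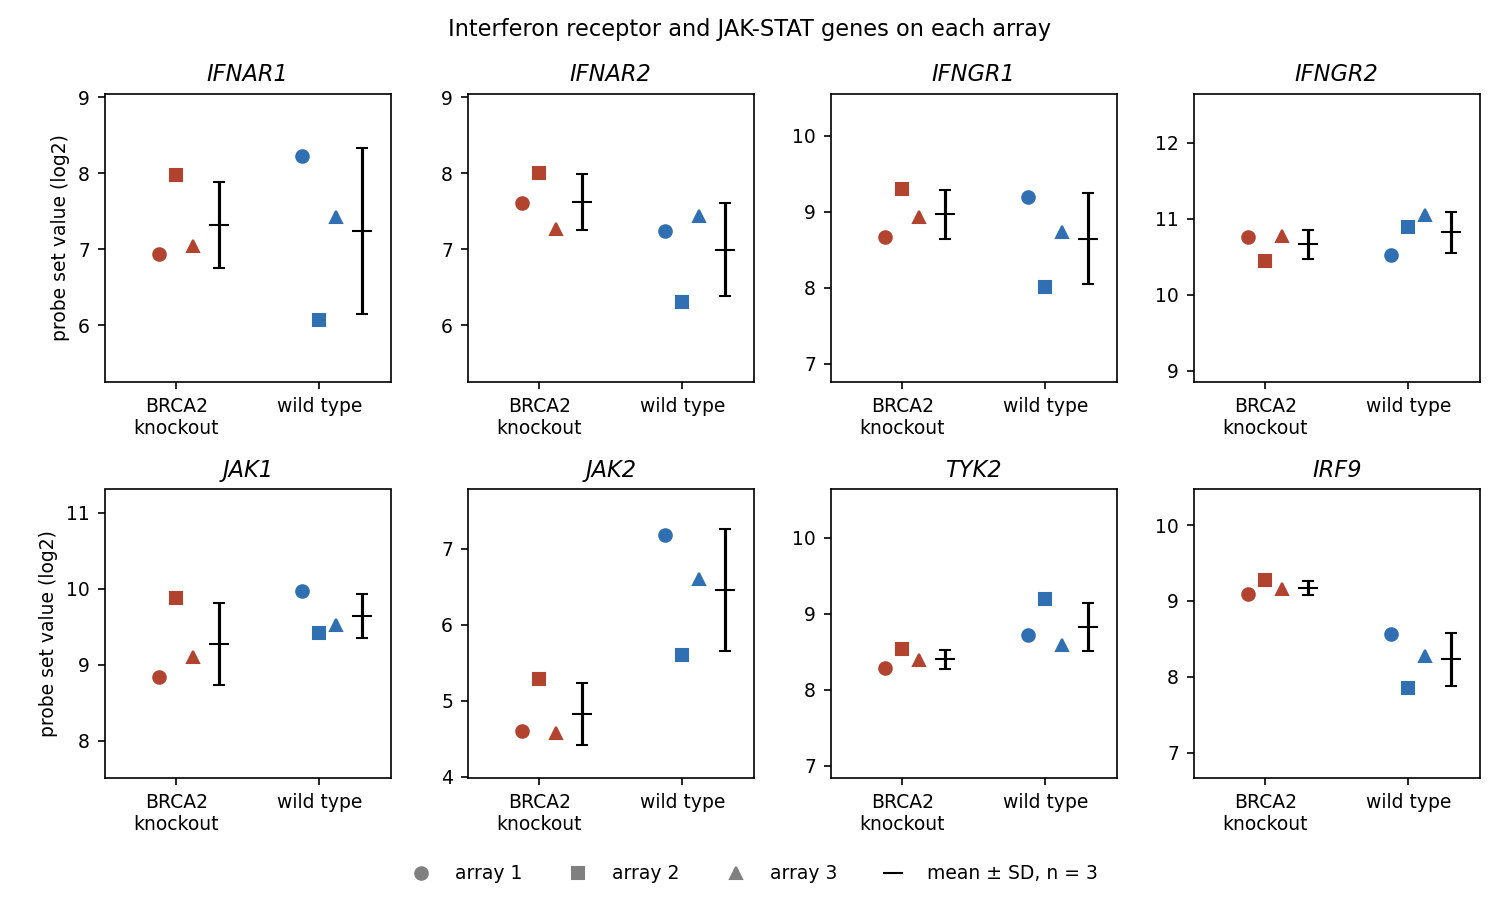
Log2 probe set value (vertical axis, a span of equal size in each panel) of the 8 measured members on each array, knockout left and wild type right, with the mean and SD over 3 arrays. The arrays of the genotypes are separate for JAK2, TYK2 and IRF9 and overlap for the other members.

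IFNAR1 encodes the chain of the type I receptor that binds TYK2. It was at 6.93, 7.97 and 7.05 on the knockout arrays and at 8.23, 6.07 and 7.42 on the wild-type arrays. The wild-type arrays alone spanned a wider range than the knockout arrays, and the groups overlapped fully. The difference was 0.08 ± 0.58 (SE, adjusted p = 0.966), with a 95% interval from -1.29 to 1.44, and its sign turned without knockout array 2 (-0.25) and without wild-type array 2 (-0.51).

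IFNAR2 encodes the partner chain, which binds JAK1 and makes the main contact with the ligand. Its values were 7.61, 8.00 and 7.26 in knockout and 7.24, 6.30 and 7.44 in wild type. Only knockout array 3 fell within the wild-type range, and wild-type array 2 was the lowest of all. The difference was 0.63 ± 0.38 (adjusted p = 0.558), with an interval from -0.28 to 1.53, and it was 0.28 without wild-type array 2. A further probe set carried the symbols of IFNAR2 and of its neighbour IL10RB together, so it was assigned to neither. It was at 9.04, 9.15 and 8.50 in knockout and at 9.22, 8.25 and 9.11 in wild type, a difference of 0.04 ± 0.36 (adjusted p = 0.975).

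IFNGR1, the ligand-binding chain for interferon gamma, was at 8.67, 9.30 and 8.93 in knockout and at 9.19, 8.01 and 8.73 in wild type. The difference of 0.32 ± 0.37 (adjusted p = 0.764, interval -0.55 to 1.20) came down to 0.0054 without wild-type array 2, the lowest array. IFNGR2, the chain that brings JAK2 to the receptor, was at 10.77, 10.45 and 10.78 in knockout and at 10.52, 10.89 and 11.05 in wild type. Its groups overlapped, and the difference of -0.16 ± 0.27 (adjusted p = 0.846) had an interval from -0.79 to 0.48. A change of 1 log2 unit in either direction lay outside that interval, but inside the interval of IFNAR1. These intervals rest on the spread between arrays, which may be technical, so they set no bound on differences between cultures.

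The type III interferon receptor is formed by IFNLR1 and IL10RB and signals through the same kinases and through ISGF3. IFNLR1 was at 5.60, 7.06 and 5.74 in knockout and at 7.01, 5.94 and 6.63 in wild type, a difference of -0.39 ± 0.48 (adjusted p = 0.779). Here too the arrays of the genotypes overlapped. IL10RB had no probe set of its own symbol in the annotation used.

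JAK1, which serves all 3 interferon receptor types, was at 8.84, 9.88 and 9.10 in knockout and at 9.98, 9.43 and 9.53 in wild type. Knockout arrays 1 and 3 lay below every wild-type array, while knockout array 2 lay within the wild-type range. The difference was -0.37 ± 0.35 (adjusted p = 0.708, interval -1.20 to 0.45), and it was -0.67 without knockout array 2.

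JAK2, the kinase bound to IFNGR2 that also serves receptors such as those of erythropoietin and growth hormone, had the largest difference of the 8 members. It was at 4.60, 5.29 and 4.58 on the knockout arrays and at 7.18, 5.60 and 6.61 on the wild-type arrays. All knockout arrays lay below all wild-type arrays, although knockout array 2 and wild-type array 2 were only a short distance apart. The means were 4.82 ± 0.40 in knockout and 6.46 ± 0.80 in wild type (SD, n = 3 arrays each). The difference was -1.64 ± 0.45 (SE), or 3.11-fold lower in knockout, with an interval from -2.70 to -0.58, an unadjusted limma p of 0.00814 and an adjusted p of 0.219. In RNA pooled from many cells, fewer cells with the transcript and less RNA per cell cannot be told apart. The probe set was dim, since only 19.7% of probe sets had a lower mean over the 6 arrays. With each array centred on its median, JAK2 was at 4.72, 5.02 and 4.69 in knockout and at 7.00, 5.77 and 6.66 in wild type, again without overlap.

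TYK2, the kinase bound to IFNAR1, was at 8.28, 8.53 and 8.39 in knockout and at 8.72, 9.19 and 8.59 in wild type. The groups did not overlap, by a narrow margin between knockout array 2 and wild-type array 3. The difference was -0.43 ± 0.27 (adjusted p = 0.570, interval -1.07 to 0.21). All 3 kinases of the interferon receptors thus had negative differences, of which that of JAK2 alone had an interval below 0.

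IRF9 encodes the DNA-binding subunit of ISGF3 and is itself induced by interferon. It was at 9.09, 9.27 and 9.16 on the knockout arrays and at 8.56, 7.86 and 8.28 on the wild-type arrays. The knockout arrays lay close together, and all of them were above the highest wild-type array. The means were 9.17 ± 0.09 in knockout and 8.23 ± 0.35 in wild type (SD, n = 3 arrays each). The difference was 0.94 ± 0.28 (SE), or 1.92-fold higher in knockout, with an interval from 0.29 to 1.60, an unadjusted limma p of 0.0112 and an adjusted p of 0.240. After centring each array on its median, IRF9 was at 9.21, 9.01 and 9.27 in knockout and at 8.38, 8.03 and 8.32 in wild type.

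**Figure D2:**
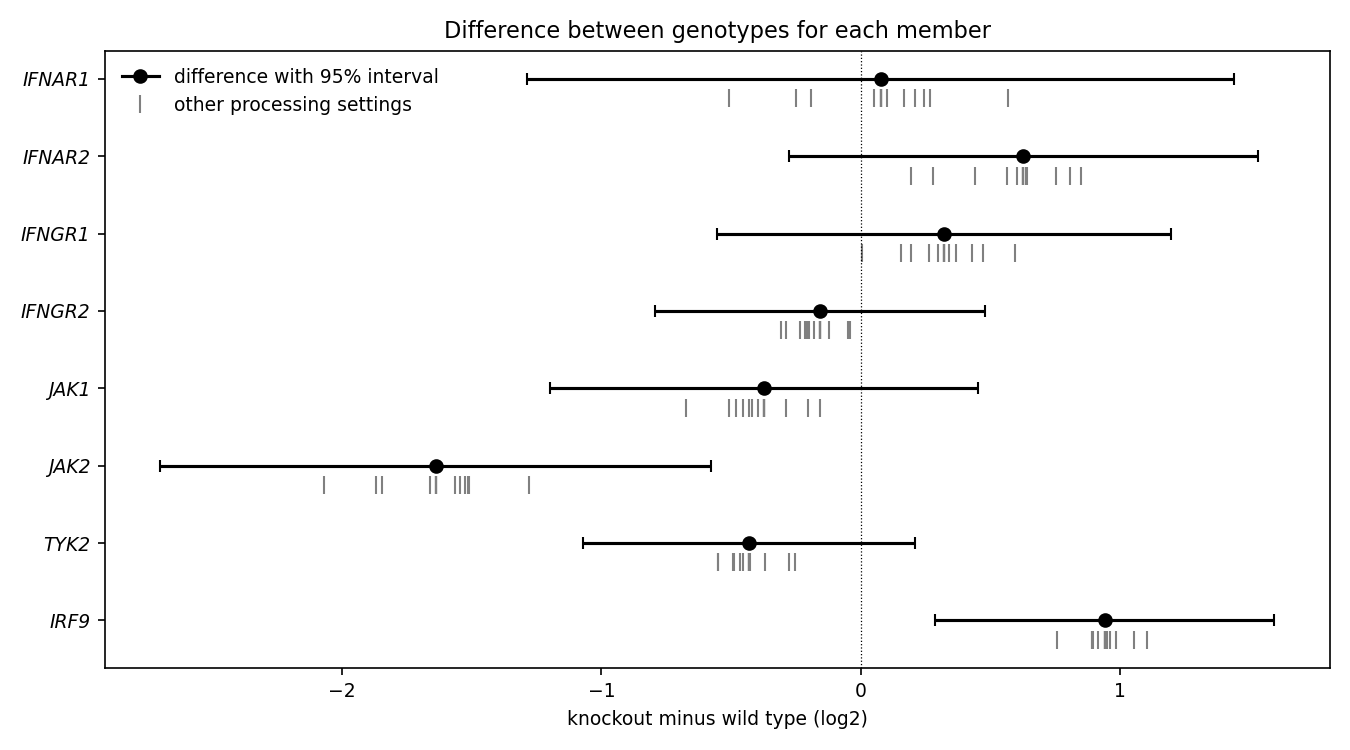
Difference between genotypes (horizontal axis, knockout minus wild type, log2) for each member, with its 95% interval from the limma fit, and below it the difference under each other processing setting (grey ticks). The intervals of JAK2 (-2.70 to -0.58) and IRF9 (0.29 to 1.60) exclude 0, and the grey ticks of IFNAR1 lie on both sides of 0.

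Part of the array-to-array variation of the members followed the medians of the arrays. For 5 of the 8, IFNAR1, IFNGR1, JAK1, JAK2 and IRF9, knockout array 2 was the highest knockout array and wild-type array 1 the highest wild-type array, and these were the arrays of highest median in their groups. Wild-type array 2, the array of lowest median, was the lowest wild-type array for 6 of the 8. Most of these orders remained after centring on the median. Wild-type array 1 stayed the highest wild-type array for all 5, and knockout array 2 the highest knockout array for IFNAR1, JAK1 and JAK2. Knockout array 3 was then the highest knockout array for IFNGR1 (9.04, against 9.03 on array 2) and IRF9 (9.27 against 9.01). Among wild-type arrays, JAK1 was then lowest on array 3, while IFNAR1, IFNAR2, IFNGR1, JAK2 and IRF9 stayed lowest on array 2. How many of all probe sets had these orders of arrays was not counted, so whether they are particular to the members is not known. Without both arrays of highest median, the differences of JAK2 (-1.51) and IRF9 (1.06) had unadjusted limma p-values of 0.0158 and 0.0161.

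The genes most like JAK2 over the 6 arrays were sought by the root mean square distance between profiles, each centred on its own mean. The nearest were GCA, which encodes the calcium-binding protein grancalcin, at a distance of 0.20 log2 units, IFT74, a component of the intraflagellar transport machinery, at 0.22, and GPR143, a receptor of pigment cell melanosomes, at 0.23. GCA was at 5.38, 6.47 and 5.54 in knockout and at 8.00, 6.94 and 7.73 in wild type, a difference of -1.76 (adjusted p = 0.165). Since it was picked for its likeness to JAK2 on these same arrays, a difference near that of JAK2 follows from the choice. Among the other members the nearest to JAK2 was JAK1, at a distance of 0.72 and rank 1992 among all other genes.

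Of the members, IFNAR2, IFNAR1 and IFNGR2 lie side by side on chromosome 21 with IL10RB between the type I receptor genes. The gene order was taken from a RefSeq table. The measured genes next to this cluster, EPCIP, OLIG2 and OLIG1 on one side and TMEM50B, DNAJC28 and GART on the other, had differences between -0.67 (OLIG1, a transcription factor of the oligodendrocyte lineage) and 0.32 (OLIG2). Of these 6, 2 were higher and 4 lower in knockout, and none had an unadjusted p under 0.05 or groups without overlap. The receptor genes and their neighbours thus showed no common direction.

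The neighbourhood of JAK2 on the short arm of chromosome 9 was different, and was examined after the value of JAK2 had been seen. All 12 of the nearest measured genes, 6 on each side, were lower in knockout, with a median difference of -1.30, against 5955 lower of 13139 genes overall and a median of 0.07. For 9 of the 12 the unadjusted p was under 0.05 and the highest knockout array was below the lowest wild-type array, where 5.28% and 7.7% of all probe sets were lower by these measures. On the side of RCL1, which encodes a protein of ribosomal RNA processing, the differences were -0.68 for RCL1, -0.77 for the mitochondrial adenylate kinase gene AK3, -0.95 for the co-chaperone gene CDC37L1, -0.95 for the phosphatase gene PLPP6, -2.25 for SPATA6L and -1.30 for the glutamate transporter gene SLC1A1.

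On the other side of JAK2 the differences were -1.31 for the plasminogen receptor gene PLGRKT, -1.56 for CD274, which encodes the checkpoint ligand PD-L1, -1.91 for PDCD1LG2, which encodes PD-L2, -1.40 for RIC1, -2.05 for the melanocyte gene MLANA and -0.95 for the ubiquitin ligase gene UHRF2. CD274, PDCD1LG2 and MLANA were the 3 of the 12 whose groups overlapped, and their intervals included 0. Of the 12, none passed an adjusted p of 0.05 in limma. SPATA6L, CD274, PDCD1LG2 and MLANA were dim, with knockout means of 2.42, 2.99, 2.38 and 1.72 against wild-type means of 4.67, 4.55, 4.29 and 3.76, so the size of their differences is uncertain. With values under 4 set to 4, 11 of the 12 were lower and 8 had an unadjusted p under 0.05. Without the dimmest 30% of probe sets 7 of the 12 were left, all lower with an unadjusted p under 0.05. All 12 were lower with each array left out in turn, but 5 of them had an unadjusted p under 0.05 without wild-type array 3.

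From the first measured gene of chromosome 9 up to ZDHHC21, a limit chosen after the values were seen, there were 17 measured genes besides JAK2 and those 12 neighbours. Of these, 13 were lower in knockout and 4 higher (median -0.61). At an unadjusted limma p under 0.05, 7 were lower and 1 higher, where 5.28% of all probe sets were lower and 6.92% higher. Since the values set the limit, these counts are a description only. Beyond ZDHHC21, 167 of 434 measured genes were lower and 267 higher (median 0.17), with 28 lower and 43 higher at that p threshold.

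The neighbours of IRF9 on chromosome 14 were mixed. Of the 12 nearest measured genes 8 were higher and 4 lower (median 0.36), against 7184 higher of 13139 genes overall. An unadjusted p under 0.05 was found for 2 of the 12, where 12.2% of all probe sets had one. Both were adjacent to IRF9 among the measured genes. REC8, which encodes a meiotic cohesin subunit, differed by 1.14 ± 0.29 (adjusted p = 0.189), and RNF31, the catalytic subunit of the linear ubiquitin ligase complex, by 0.58 ± 0.24 (adjusted p = 0.393). For both, all knockout arrays were above all wild-type arrays.

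**Figure D3:**
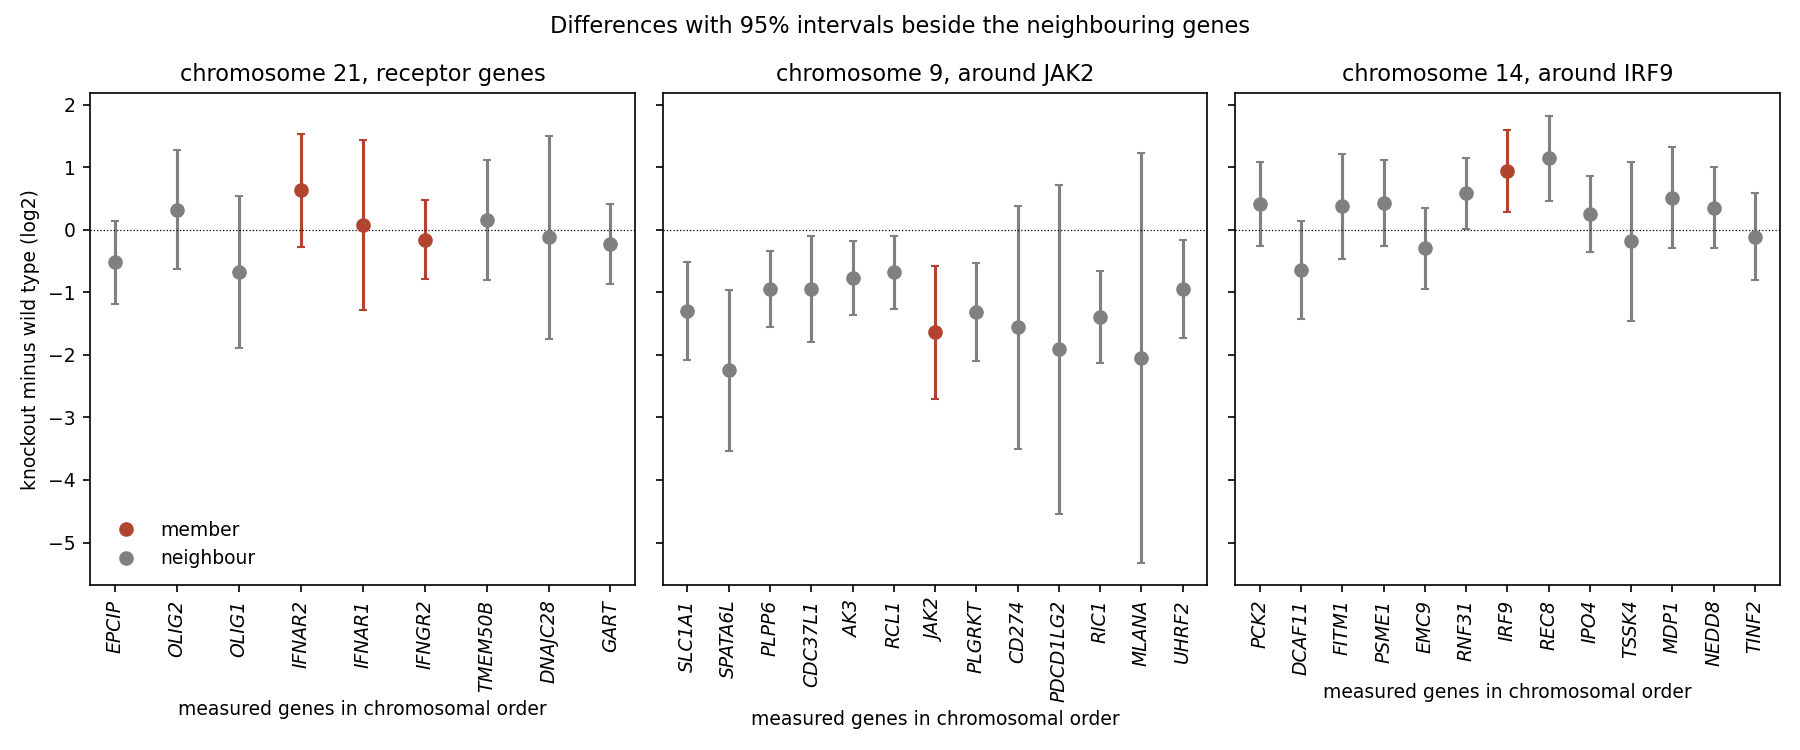
Difference between genotypes (vertical axis, knockout minus wild type, log2) with 95% intervals for measured genes in chromosomal order around the receptor genes of chromosome 21 (left), JAK2 (middle) and IRF9 (right), members in red and neighbours in grey. All 12 neighbours of JAK2 lie below 0, whereas the neighbours of the receptor genes and of IRF9 lie on both sides.

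The promoter of IRF9 is shown because IRF9 was the member with the highest positive difference and because the pathway acts on its own genes through GAS and ISRE sequences. The 250 bases before its start are given from RefSeq (GRCh38.p14, chr14:24161015-24161264, plus strand), in lower case with a match to the GAS letters TTCNNNGAA in capitals.
IRF9: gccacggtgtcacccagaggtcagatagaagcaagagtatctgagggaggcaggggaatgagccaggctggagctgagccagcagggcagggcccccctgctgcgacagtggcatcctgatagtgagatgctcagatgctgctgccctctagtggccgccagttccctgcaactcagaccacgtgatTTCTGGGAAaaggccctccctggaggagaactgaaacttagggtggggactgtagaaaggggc
The match begins 63 bases before the start. The letters of GAS read the same on both strands, and 6.78% of 27305 promoters of this length held a match. The core of the ISRE was searched as 2 copies of GAAA with NN between them and, for the other strand, 2 copies of TTTC with NN between them, which 3.07% of promoters held. Promoters were found for 8 of the 9 members, without IFNAR2. Of these, IRF9 alone held a GAS match and none held an ISRE match in this window. A single window per gene was searched, so sequence before any other start of the same gene was not covered.

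The same search covered the 11 genes with a promoter in the table among the 12 named below from the lists around the pathway. GAS matches were found for 4 of them, with up to 10 flanking bases shown on each side, and an ISRE match was found for IFI44.
IRF1 (GRCh38.p14, chr5:132490879-132490907, minus strand): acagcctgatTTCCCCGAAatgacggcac
ICAM1 (GRCh38.p14, chr19:10271035-10271063, plus strand): ggcgcgaggtTTCCGGGAAagcagcaccg
IFNLR1 (GRCh38.p14, chr1:24187509-24187537, minus strand): tgatttttttTTCCGGGAAttgagtaaaa
IFNG (GRCh38.p14, chr12:68159964-68159990, minus strand): aaagtgccTTCAAAGAAtcccaccaga
IFI44 (GRCh38.p14, chr1:78649761-78649788, plus strand): gcacactgagTTTCAGTTTCctttctct
The genes with these matches had differences of both signs, with IRF1 higher and ICAM1 lower in the knockout. A match describes these letters only.

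Beside the members, the other JAK and STAT genes were all on the higher side. All 4 measured of 7 listed were higher in knockout, with a median difference of 0.79. An unadjusted p under 0.05 was found for 2, where 12.2% of all probe sets had one. STAT6, the transducer of interleukin 4 and interleukin 13, was at 9.99, 10.18 and 10.19 in knockout and at 9.21, 9.09 and 9.11 in wild type, without overlap. Its difference was 0.98 ± 0.24 (adjusted p = 0.165). STAT3, the transducer of the interleukin 6 family, was at 11.82, 11.91 and 12.18 in knockout and at 11.31, 11.42 and 11.32 in wild type, a difference of 0.62 ± 0.24 (adjusted p = 0.374).

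Of 7 measured interferon regulatory factors other than IRF9, 5 were higher and 2 lower (median 0.38). IRF1, a factor induced through GAS that activates interferon and antigen presentation genes, was at 9.06, 9.51 and 9.36 in knockout and at 8.23, 7.89 and 8.07 in wild type. The groups were well apart, with a difference of 1.25 ± 0.26 (adjusted p = 0.125), or 2.38-fold.

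Ligand genes were mostly not covered, with 4 measured of 21 listed, 2 higher and 2 lower (median -0.13). The largest difference was in IFNG, the interferon gamma gene, which was at 3.86, 4.31 and 0.79 in knockout and at 4.56, 5.96 and 4.19 in wild type. The difference of -1.92 ± 0.95 (adjusted p = 0.484) came down to -0.82 without knockout array 3, which was far below the others.

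Genes that restrain JAK-STAT signalling went both ways. Of 14 measured of 19 listed, 8 were higher and 6 lower (median 0.10). An unadjusted p under 0.05 was found for 1 in each direction, where 12.2% of all probe sets had one. SOCS6, a member of the SOCS family of ubiquitin ligase adaptors, was at 10.65, 10.72 and 11.23 in knockout and at 9.91, 9.71 and 9.53 in wild type, a difference of 1.15 ± 0.28 (adjusted p = 0.170). SOCS3, the feedback inhibitor of receptors that use gp130, was at 4.62, 6.13 and 5.35 in knockout and at 6.90, 6.48 and 6.15 in wild type. Its groups did not overlap, though knockout array 2 and wild-type array 3 nearly met, and the difference was -1.14 ± 0.43 (adjusted p = 0.354).

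**Figure D4:**
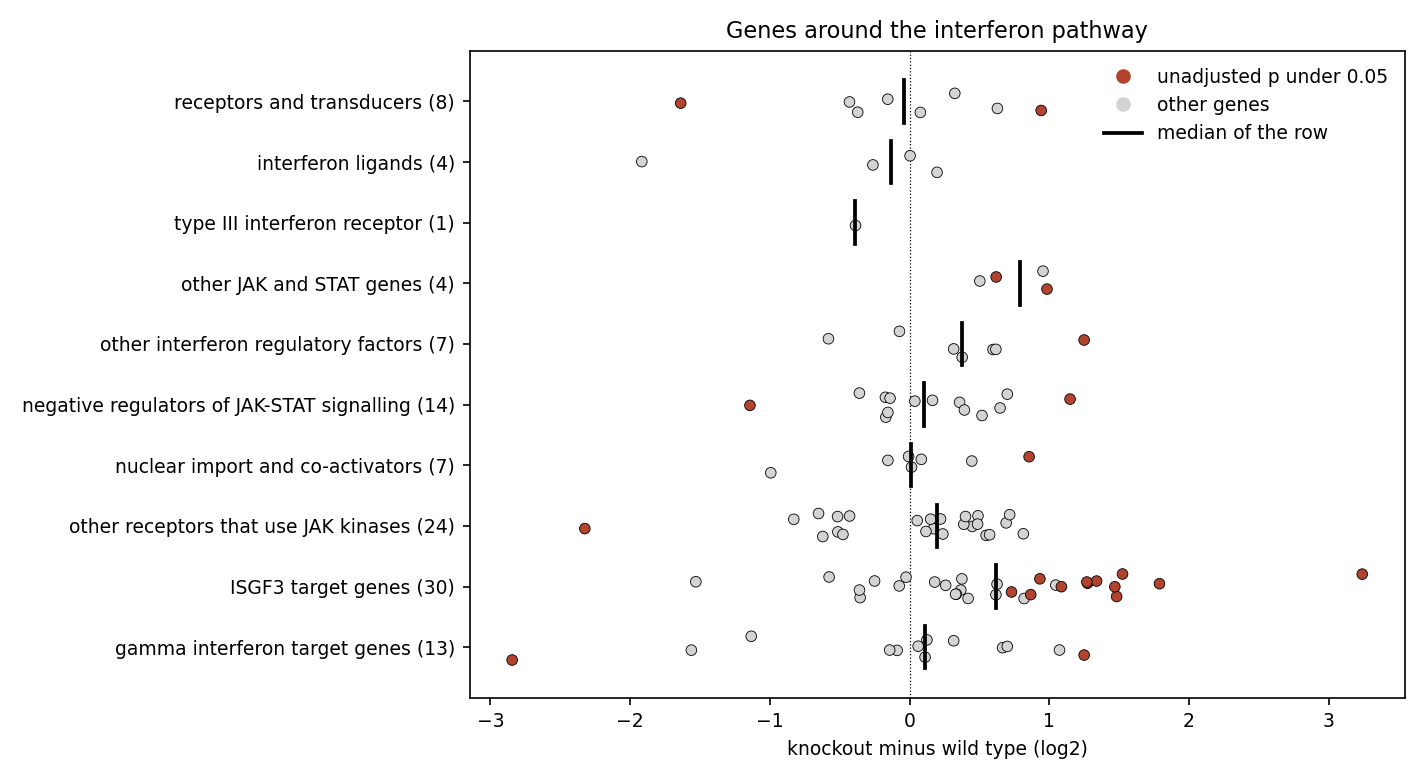
Difference between genotypes (horizontal axis, knockout minus wild type, log2) of each measured gene in the receptor and transducer set and in lists around the pathway, with the number of genes in parentheses, the median of each row as a bar, and genes with an unadjusted limma p under 0.05 in red. The receptors and transducers have a median of -0.04 and the ISGF3 target genes one of 0.62.

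Downstream, 23 of 30 measured ISGF3 target genes were higher in knockout (median 0.62), against 7184 of 13139 genes overall (median 0.07). At an unadjusted p under 0.05, 12 were higher and none lower, where 6.92% of all probe sets were higher. The list was chosen with earlier results of these data known, so these counts are a description only. IFIT2 and IFI44, both induced by type I interferon, rose in the knockout over all probe sets (differences 1.79 ± 0.25 and 3.24 ± 0.48, adjusted p = 0.0387 and 0.0459). With any 1 array left out IFIT2 lost its call (adjusted p of 0.0709 without knockout array 2 and above that without each other array), while IFI44 kept its call without knockout array 2 (adjusted p = 0.0339) and lost it without each other array. IFI44 differed by 1.07 with values under 4 set to 4 (adjusted p = 0.380), and it also lost its call with quantile normalization (adjusted p = 0.0979), a variance trend (0.111) and no moderation (0.143). Both genes lost it with the replicate block (adjusted p = 0.420 for IFIT2 and 0.286 for IFI44) and without both arrays of highest median (0.142 and 0.113). Of 13 measured genes known as interferon gamma targets, 8 were higher and 5 lower (median 0.11). An unadjusted p under 0.05 was found for 1 in each direction, where 12.2% of all probe sets had one. Besides IRF1, ICAM1, an adhesion molecule gene, had an unadjusted p under 0.05 and was at 3.54, 5.73 and 3.47 in knockout and at 6.97, 7.05 and 7.24 in wild type, a difference of -2.84 ± 0.61 (adjusted p = 0.130).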

How the data were processed

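Total RNA of HCT116 cells was depleted of ribosomal RNA, labelled and hybridised to whole-transcript arrays, per the labels' protocols. The deposited values are log2 probe set values, and the submitters' processing notes list RMA, hg18 and R 2.11.1. The steps taken within RMA were not given in the sources used here. That the scale is log2 was inferred from the range of the values, and their quantiles differ between arrays, so they are not quantile normalized. The number of arrays limits the precision.

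Symbols came from the annotation of the array platform, in which 13301 of 19458 had 1 symbol, 2044 several and 4113 none. Where a gene had several probe sets, the one of highest mean was used. Gene order and promoters came from RefSeq tables of GRCh38.p14, in which 13280 of the 13301 were found by gene identifier.

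Genotype was the single factor, which is the design the series names, in 1 limma 3.58.1 fit (R 4.3.3) of every probe set, and the Benjamini-Hochberg adjustment ran over the whole table. Differences are knockout minus wild type. The code was tested on simulated data. Members and lists were chosen with earlier results of these data known. The genes named were all members, from each list the called genes, or else up to 3 with an unadjusted p under 0.05, or else the one of largest difference, IFNLR1 and IL10RB always, the chromosomal neighbours of the chromosome 21 receptors, and the 3 genes with profiles nearest to that of the member of smallest p. The colon markers EPCAM, KRT8, KRT20 and CEACAM5 were named after their values were seen. The wider neighbourhoods of JAK2 and IRF9 were added after the values were seen. Other settings tried were centring on the median, quantile normalization, removal of the dimmest 30% of probe sets, a floor of 4, a variance trend, robust variance, no moderation, weights per array, a replicate block, and fits without each array or without both arrays of highest median.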

Additional observations from a re-analysis of the deposited data

How the results depend on the processing

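IRF9 was higher in the knockout under all 16 alternatives (0.76 to 1.11, adjusted p 0.0666 to 0.731), and JAK2 was lower under the 15 that kept it (-2.07 to -1.28, adjusted p 0.0350 to 0.674). JAK2 passed the threshold with array weights (-1.85, adjusted p = 0.0350). It was then the 1 member called of 8, where 778 of 19458 probe sets were called. At an unadjusted limma p under 0.05 there were 2 members with array weights, where 25.0% of all probe sets had one. Leaving out the dimmest 30% of probe sets, those with a mean under 6.36, removed JAK2. IFNAR1 turned to -0.19 with array weights, and ranged from -0.51 to 0.57 with any 1 array left out. The signs of the other 5 members held under all alternatives. Without both arrays of highest median, 5 of 8 members had no overlap, where 47.3% of all probe sets had none. Of 4 ligand genes, 2 as reported, 1 after median centring and 3 after quantile normalization were higher. The count of calls over all probe sets, 111 as reported, was 175 with median centring, 174 with quantile normalization, 184 without the dimmest probe sets, 169 with values under 4 set to 4, 396 with a variance trend, 778 with array weights and 7 without both arrays of highest median. It was 24 to 63 with any 1 array left out. For array weights and the variance trend the cause was not tested. The replicate numbers did not pair the arrays. Deviations of same-numbered arrays correlated at -0.24, -0.43 and 0.06, and knockout array 2 was closest to wild-type array 1 (0.49). With the replicate number as a block there were 3 calls over all probe sets and 0 among the members. STAT6, IRF1, SOCS6 and ICAM1 passed the threshold with a variance trend and with array weights (adjusted p 0.0108 to 0.0445), as did CREBBP with the trend alone. ICAM1 also passed without knockout array 2 (-3.59, adjusted p = 0.0124), and STAT6 with no moderation (adjusted p = 0.0456).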

Other observations

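Other cytokine receptors that use Janus kinases were measured in 24 of 34 listed cases, 16 higher and 8 lower in the knockout (median 0.20). The list held 1 gene with an unadjusted p under 0.05, where 12.2% of all probe sets had one. IL20RA, a chain of the receptors for interleukins of the IL-20 family, was at 2.71, 6.71 and 5.38 on the knockout arrays and at 7.71, 7.28 and 6.78 on the wild-type arrays. The groups did not overlap, but the knockout arrays ranged widely, and the difference was -2.32 ± 0.93 (SE, adjusted p = 0.383 in limma). Nuclear import factors and co-activators of STAT proteins had 4 higher and 3 lower among 7 measured of 9 listed (median 0.01). CREBBP, a histone acetyltransferase that binds STAT proteins, was at 10.96, 11.22 and 11.19 in knockout and at 10.27, 10.33 and 10.21 in wild type. All knockout arrays were above all wild-type arrays, with a difference of 0.86 ± 0.24 (adjusted p = 0.221).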
